A study of Mus musculus with 33 samples.

Results

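The 10 genes described here belong to the WNT pathway: the ligands *Wnt3*, *Wnt3a*, *Wnt5a* and *Wnt8a*, the R-spondin *Rspo3*, the transcription factors *Lef1* and *Tcf7*, the pathway targets *Axin2* and *Sp5*, and the secreted inhibitor *Dkk1*. They were chosen by gene symbol from the 16336 genes listed in the expression table, where all 10 were found. Poly-A RNA was sequenced from mouse embryonic stem (ES) cells of strain 129/Ola before and during differentiation into embryoid bodies (EBs), cell aggregates in which the germ layers form. The wild-type line was E14Tg2a, and ΔK9.1 and ΔK9.2 were 2 mutant derivatives of it, each a single CRISPR clone lacking on both alleles the stretch marked by H3K9me3 that lies between the enhancer and the promoter of *Nanog*. No agent other than the differentiation medium was applied. At day 0 all lines were undifferentiated, grown on gelatine with serum and LIF, and at days 4, 6 and 8 they had been differentiated in serum without LIF, first as floating aggregates and, after day 4, replated on gelatine. Each line and day had 3 libraries, except day 6, which had only replicates 2 and 3 of each line, so that the 12 groups held 33 libraries. The comparisons ask how the genes moved with differentiation in E14Tg2a cells and how the clones differed from E14Tg2a on the same day.

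WNT ligands are secreted proteins that bind Frizzled and LRP receptors. In the canonical branch this stops the destruction complex, in which AXIN proteins are scaffolds, from degrading beta-catenin, which then enters the nucleus and joins TCF/LEF factors at target genes. R-spondins keep Frizzled receptors at the surface, and DKK1 blocks the LRP co-receptors. In the mouse embryo canonical WNT signalling is required for the primitive streak and mesoderm, and in ES cells it supports self-renewal.

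Promoter windows from RefSeq (build GRCm38.p6) were searched for 7 of the 10 genes, with 11 windows between them. No window of *Wnt5a*, *Wnt8a* or *Rspo3* was among those searched, so the counts below do not cover these genes. The 250 bases before each start were searched on both strands for CTTTGAA and CTTTGAT, letters that TCF/LEF factors are known to prefer, whose reverse complements are TTCAAAG and ATCAAAG. A match was present in 2 of the 11 windows, those of *Sp5* and *Dkk1*, and in 2457 of 32851 windows of all genes (7.48%). The stretches below are shown because *Sp5* had the largest step of the members between day 4 and day 6 in E14Tg2a, *Axin2* is the widely used target without these letters in its window, and *Dkk1* is the inhibitor with a match. Capitals mark the match, which in *Sp5* (chr2:70474673-70474922, plus strand) began 104 bases before the start and in *Dkk1* (chr19:30549596-30549625, minus strand) 117 bases before it, while the *Axin2* window (chr11:108920099-108920348, plus strand) held none. The start used for *Dkk1* is that of RefSeq, which lies downstream of the GENCODE gene start given further on, so that its printed bases fall within the GENCODE gene. The sequences are:
Sp5: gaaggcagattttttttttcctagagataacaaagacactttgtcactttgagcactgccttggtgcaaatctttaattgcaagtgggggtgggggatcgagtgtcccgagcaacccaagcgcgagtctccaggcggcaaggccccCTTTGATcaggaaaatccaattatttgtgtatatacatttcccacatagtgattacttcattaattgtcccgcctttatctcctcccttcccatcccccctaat
Axin2: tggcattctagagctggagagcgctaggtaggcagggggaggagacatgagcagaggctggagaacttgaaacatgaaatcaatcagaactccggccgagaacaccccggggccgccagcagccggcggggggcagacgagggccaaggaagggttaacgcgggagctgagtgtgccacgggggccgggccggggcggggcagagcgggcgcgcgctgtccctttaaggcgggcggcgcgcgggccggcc
Dkk1: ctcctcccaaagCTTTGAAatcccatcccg
These matches describe letters only, since no binding was measured here.

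Expression was given as TPM, a unit of transcript abundance that is scaled per transcript length and sums to the same total in every library, so that TPM can be compared between genes but keep no trace of sequencing depth. Between 12903 and 13905 genes reached 1 TPM per library. *Nanog*, beside which the deletion lies, was at 326 to 368 TPM in the undifferentiated E14Tg2a libraries, 456 to 486 for ΔK9.1 and 412 to 439 for ΔK9.2. At day 8 it was at 21.97 to 34.6 TPM in E14Tg2a, 49.3 to 177 for ΔK9.1 and 69.9 to 126 for ΔK9.2. One library stood apart: ΔK9.1 day 6 replicate 3 was the lowest of the 6 day 6 libraries for 9 of the 10 members, *Tcf7* being the exception. The summed level of 10 markers of the primitive streak and nascent mesoderm was 112 TPM in that library, 774 TPM in the other ΔK9.1 library of day 6, 724 to 770 TPM in E14Tg2a and 568 to 637 TPM in ΔK9.2. At day 8 the libraries of replicate 1 were high, with the highest level of their own line for 8 members in E14Tg2a, 6 for ΔK9.1 and 9 for ΔK9.2. In such bulk samples, fewer cells expressing a gene and less RNA of it per cell cannot be told apart.

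During differentiation of E14Tg2a cells, 9 of the 10 members rose between day 0 and day 6, led by *Rspo3*, *Sp5* and *Wnt3*, and *Wnt3a*, *Wnt8a* and *Sp5* fell again by day 8. A gene was called when the limma test on log2(TPM + 1), adjusted by Benjamini-Hochberg over all 16336 genes, gave an adjusted p under 0.05 and the change exceeded 1 on the log2 scale. This scale understates the changes of genes near 0 TPM. By day 4 only *Lef1* and *Tcf7* were called higher than at day 0. These were 2 members, where 7.74% of all genes were called and 3.67% called higher. *Wnt8a* was called too with only the groups compared (1.29, adjusted p = 0.0452) and with a pseudocount of 0.1 (3.09, adjusted p = 0.00503). *Rspo3* was called with that pseudocount (1.82, adjusted p = 0.0276). The 9 called at day 6 were all higher, against 17.6% of all genes called and 8.95% called higher, and the median change of the 10 members was 3.79 on the log2 scale against 0 over all genes. From day 4 to day 6 the same count of 9 was called higher, where 9.33% of all genes were called and 5.19% called higher. The exception was again *Tcf7*. At day 8, 7 were called higher than at day 0 (26.9% of all genes called, 15.9% called higher), with a median of 2.43 against 0.05. From day 6 to day 8, 3 members were called lower, where 9.26% of all genes were called and 2.73% called lower. With replicate numbers as a block in the fit, 6 members were called lower over this step, where 3.24% of all genes were. Cell type markers moved over the same days in E14Tg2a. The summed level of 10 streak and nascent mesoderm markers was 3.12 to 12.45 TPM at day 0, 20.1 to 33.9 TPM at day 4, 724 to 770 TPM at day 6 and 31.5 to 206 TPM at day 8, with 10 of 10 called higher at day 6 than at day 0 and 8 called lower from day 6 to day 8. Sums over 10 mesenchyme markers went from 3.52 to 16.6 TPM at day 0 up to 984 to 2439.8 TPM at day 8 (9 called higher), those over 13 extraembryonic endoderm markers from 11.0 to 139 TPM up to 390 to 540 TPM (11 higher), and those over 8 pluripotency markers from 3275 to 3800.3 TPM down to 173 to 334 TPM (7 lower). Of 8 neural markers 2 were called higher and 2 lower. The streak marker *Msgn1* was at 0 TPM in all E14Tg2a libraries of days 0 and 4, and the part of these cell types in the members' changes was not tested.

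**Figure D1:**
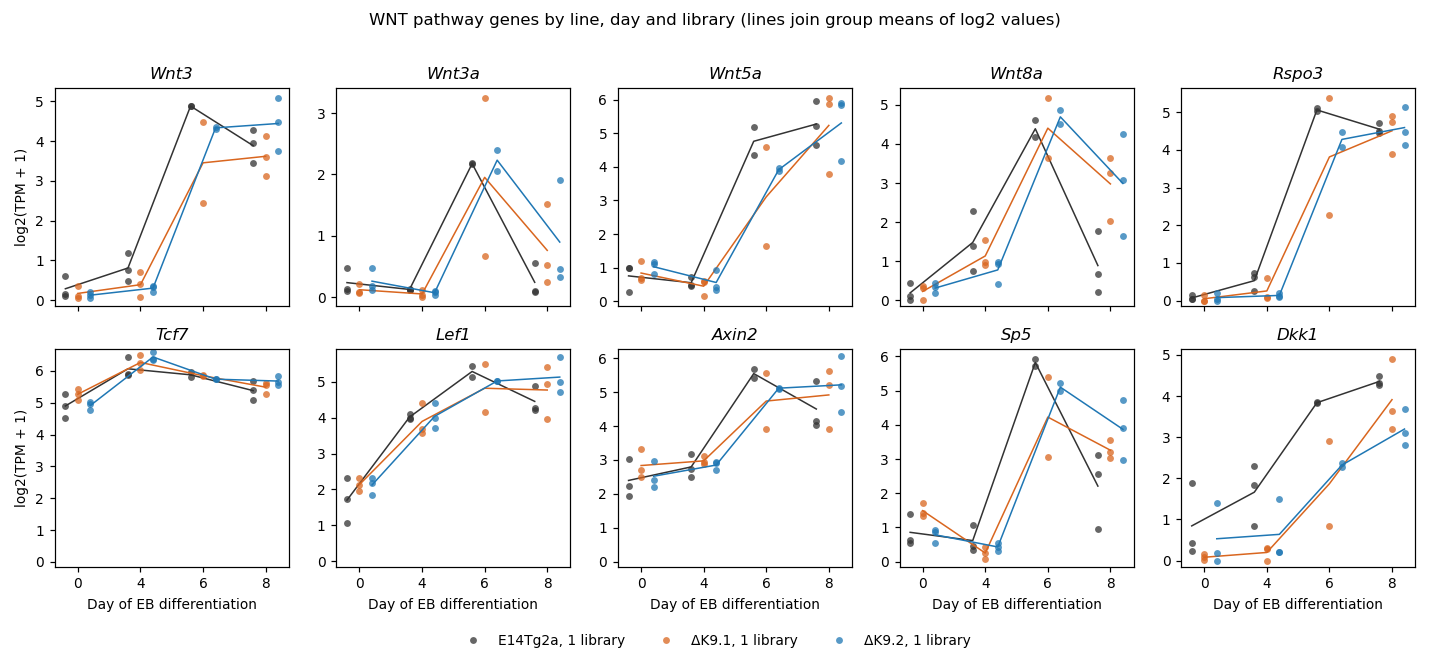
Levels of the 10 WNT pathway genes, with 1 panel per gene. The horizontal axis is the day of differentiation and the vertical axis log2(TPM + 1); each point is 1 library and lines join the means of E14Tg2a, ΔK9.1 and ΔK9.2. The means of every member except *Tcf7* were lower at day 4 than at day 6 in all 3 lines, and the day 8 means of *Wnt8a* and *Sp5* were lower in E14Tg2a than in either clone.

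Among the ligands, *Wnt3* (chr11:103774150-103817957 in mm10, plus strand), which is needed for primitive streak formation, was nearly silent in undifferentiated cells and abundant from day 6. In E14Tg2a it was at 0.515, 0.121 and 0.0763 TPM in the 3 libraries of day 0, 0.391, 1.30 and 0.690 TPM at day 4, 28.5 and 28.3 TPM at day 6 and 18.2, 9.90 and 14.4 TPM at day 8. The libraries of days 6 and 8 did not overlap with those before. The rise from day 4 to day 6 was 4.07 ± 0.40 (log2 ± SE, adjusted p = 3.74e-07). The later change of -0.99 ± 0.40 from day 6 to day 8 was not called (adjusted p = 0.0668), but it was once replicate numbers entered the fit as a block (-1.05, adjusted p = 0.0395) or E14Tg2a day 8 replicate 1 was left out (-1.18, adjusted p = 0.0448). In ΔK9.1 *Wnt3* was at 21.1 and 4.42 TPM at day 6 and 16.4, 11.1 and 7.77 TPM at day 8, and in ΔK9.2 at 18.9 and 19.4 TPM and 32.6, 21.5 and 12.6 TPM. Its day 8 mean was 49.9% of its day 6 mean in E14Tg2a, 92.01% for ΔK9.1 and 116% for ΔK9.2. The ΔK9.1 figure rests on 2 day 6 libraries far apart. On the log2 scale that change was 1.18 without ΔK9.1 day 6 replicate 2 and turned from a rise to a fall without replicate 3. The ΔK9.2 change likewise turned to a fall without ΔK9.2 day 8 replicate 1.

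*Wnt8a*, a ligand expressed in the early primitive streak (chr18:34542313-34548273, plus strand), was high only at day 6 in wild-type cells. In E14Tg2a it was at 0.372, 0.0882 and 0 TPM at day 0, 1.64, 3.88 and 0.690 TPM at day 4, 17.03 and 23.3 TPM at day 6 and 2.44, 0.161 and 0.597 TPM at day 8. It rose by 2.91 ± 0.56 on the log2 scale from day 4 to day 6 (adjusted p = 0.000632) and dropped from day 6 to day 8, with a change of -3.50 ± 0.56 (adjusted p = 0.000116), to a level not called different from day 0 (0.70, adjusted p = 0.242), although with a pseudocount of 0.1 in place of 1 it was called (1.90, adjusted p = 0.0413). ΔK9.1 had 34.8 and 11.5 TPM at day 6 and 8.53, 3.09 and 11.6 TPM at day 8. ΔK9.2 had 21.8 and 28.4 TPM and 17.97, 2.11 and 7.50 TPM. Here the day 8 libraries ran from 2.11 to 17.97 TPM in the clones and from 0.161 to 2.44 TPM in E14Tg2a, so that they overlapped only between the lowest clone library and the highest wild-type library. Relative to day 0, *Wnt8a* was called higher at day 8 in both clones (2.75 ± 0.50 in ΔK9.1, adjusted p = 6.82e-05, and 2.67 ± 0.50 in ΔK9.2, adjusted p = 8.54e-05).

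*Wnt3a*, known for its part in the later streak and tailbud (chr11:59248033-59290752, minus strand), had the lowest peak of the 10 members in each line, by group mean. Its E14Tg2a levels were at most 0.394 TPM at days 0 and 4, 3.50 and 3.54 TPM at day 6 and 0.470, 0.0538 and 0.0651 TPM at day 8. The rise to day 6 (2.05 ± 0.46 from day 4, adjusted p = 0.00234) and the fall after it (-1.94 ± 0.46, adjusted p = 0.00349) both passed. In the clones the day 6 levels were 8.46 and 0.584 TPM for ΔK9.1 and 3.18 and 4.29 TPM for ΔK9.2, and the changes from day 6 to day 8 were -1.19 ± 0.46 and -1.34 ± 0.46 (adjusted p = 0.0800 and 0.0555). With the replicate block both were called (adjusted p = 0.0354 and 0.0231). At day 8, replicate 1 held the highest *Wnt3a* level of its line in each of the 3 lines.

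*Wnt5a*, which acts largely through the branch without beta-catenin and guides axis elongation (chr14:28504750-28527448, plus strand), followed another course and stayed high at day 8. In E14Tg2a it was at 35.1 and 19.3 TPM at day 6 and 61.1, 36.3 and 23.9 TPM at day 8, after 0.218 to 0.993 TPM at days 0 and 4. The change from day 0 to day 8 was 4.52 ± 0.56 (adjusted p = 1.95e-07). The clones held at day 8 64.7, 57.6 and 12.7 TPM for ΔK9.1 and 58.1, 56.5 and 17.1 TPM for ΔK9.2, while at day 6 they held 22.9 and 2.09 TPM and 13.6 and 14.6 TPM. In ΔK9.1 the rise from day 6 to day 8 was called (2.13 ± 0.63, adjusted p = 0.0228), and it rested on ΔK9.1 day 6 replicate 3, without which it was 0.65 (adjusted p = 0.666). Leaving out ΔK9.1 day 8 replicate 1 or 2 also ended that call (0.104 and 0.108).

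*Rspo3*, an R-spondin that amplifies WNT signalling through LGR receptors and RNF43 and ZNRF3 (chr10:29452416-29535867, minus strand), was near 0 before differentiation and abundant from day 6. Its 9 day 0 libraries lay between 0 and 0.142 TPM. The E14Tg2a libraries held 0.543, 0.648 and 0.183 TPM at day 4, 33.4 and 31.5 TPM at day 6 and 21.5, 25.2 and 20.9 TPM at day 8. The change from day 4 to day 6 was 4.53 ± 0.47 in E14Tg2a, 3.56 ± 0.47 for ΔK9.1 and 4.14 ± 0.47 for ΔK9.2 (adjusted p = 5.46e-07, 8.91e-05 and 4.44e-06). At day 6 the ΔK9.1 libraries held 40.3 and 3.80 TPM, the highest and the lowest of all day 6 libraries, and those of ΔK9.2 15.9 and 21.4 TPM. By day 8 the lines overlapped, with 28.9, 25.6 and 13.9 TPM for ΔK9.1 and 34.6, 21.4 and 16.7 TPM for ΔK9.2. An antisense gene listed in the table, *Gm48159*, overlaps *Rspo3*, and the libraries were strand-specific.

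The transcription factors *Lef1* and *Tcf7* were the members called at day 4 in E14Tg2a. *Lef1* (chr3:131110471-131224356, plus strand) encodes an activating partner of beta-catenin and is itself a WNT target in many tissues. In E14Tg2a it was at 3.99, 1.09 and 2.31 TPM at day 0, 14.7, 16.03 and 14.8 TPM at day 4, 42.4 and 33.9 TPM at day 6 and 28.5, 17.5 and 18.2 TPM at day 8. The day 4 libraries were close together and all above day 0, a change of 2.31 ± 0.35 (adjusted p = 2.67e-05), and the same step was called in ΔK9.1 (1.76 ± 0.35, adjusted p = 0.000623) and ΔK9.2 (1.91 ± 0.35, adjusted p = 0.000198). The step from day 4 to day 6 was 1.27 ± 0.39 in E14Tg2a (adjusted p = 0.0198) and rested on single libraries, the adjusted p being 0.175 without E14Tg2a day 6 replicate 2, 0.0558 without replicate 3 of that day and 0.0538 without day 4 replicate 1. In the clones it was 0.92 ± 0.39 and 0.98 ± 0.39 and not called (adjusted p = 0.101 and 0.0577), but called with the replicate block (adjusted p = 0.00920 and 0.00353). The *Lef1* change from day 6 to day 8 was -0.83 in E14Tg2a (adjusted p = 0.122), and with the block this too was called (-1.03, adjusted p = 0.0104).

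*Tcf7* (chr11:52252371-52283014, minus strand), which encodes TCF1 and is overlapped by the listed antisense gene *A630014C17Rik*, was the most abundant member at day 0 and day 4 and the only one highest at day 4 in every line. E14Tg2a held 37.6, 28.9 and 22.1 TPM at day 0 and 85.6, 57.7 and 58.5 TPM at day 4, with no overlap, then 61.1 and 54.8 TPM at day 6 and 49.97, 33.02 and 40.9 TPM at day 8. Its rise to day 4 was 1.17 ± 0.17 in E14Tg2a (adjusted p = 1.71e-05) and 1.52 ± 0.17 in ΔK9.2 (adjusted p = 4.44e-07), whereas the 0.996 ± 0.17 in ΔK9.1 (adjusted p = 0.000133) did not exceed the fold threshold. From day 0 to day 6 *Tcf7* changed by 0.98 in E14Tg2a (adjusted p = 0.000211), under the fold threshold, and by 1.08 with the replicate block, where it was called (adjusted p = 1.35e-06). The E14Tg2a rise to day 4 fell just under that threshold, to 0.98, when day 0 replicate 3 or day 4 replicate 1 was left out. In ΔK9.1, the count of 2 members called at day 4 (5.39% of all genes called) was made up by *Lef1* and by a lower level of *Sp5* (-1.24 ± 0.47, adjusted p = 0.0483), which was lost when any of the 6 libraries compared was left out (adjusted p from 0.0728 to 0.137). In ΔK9.2 the 2 were *Lef1* and *Tcf7* (7.62% of all genes called, 2.53% called higher). The median gene changed by -0.21 between these days in ΔK9.1, and once the libraries were rescaled by median ratios, which removes such a shift, *Tcf7* was called in ΔK9.1 (1.27) and *Sp5* was not (-1.14, adjusted p = 0.0873).

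Summed over the 4 TCF/LEF genes (*Tcf7*, *Lef1*, *Tcf7l1* and *Tcf7l2*), the share of *Lef1* grew up to day 6 in each line. In E14Tg2a it averaged 4.47% of the summed TPM at day 0, 12.1% at day 4, 30.3% at day 6 and 22.7% at day 8. *Tcf7* made up 54.7% at day 0 and 44.3% at day 8, and *Tcf7l1*, mostly a repressor in ES cells, 35.6% (range 28.7 to 44.7) at day 0, 19.96% at day 6 and 27.7% (range 20.8 to 36.1) at day 8. The *Lef1* share at day 8 averaged 27.4% (range 15.8 to 36.6) for ΔK9.1 and 30.6% (range 22.8 to 37.8) for ΔK9.2. At day 6 it averaged 23.8% (range 14.6 to 32.9) and 24.9% (range 24.7 to 25.2), so that the 2 days overlapped in each clone. The 14.6% came from ΔK9.1 replicate 3, and the other ΔK9.1 library of day 6, at 32.9%, was above the day 8 mean. These shares are descriptions and were not tested.

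Of the targets, *Axin2* (chr11:108920349-108950783, plus strand), a negative feedback scaffold transcribed in most cells that receive canonical WNT signals, was expressed at every day. E14Tg2a libraries held 7.16, 3.65 and 2.83 TPM at day 0, 7.94, 4.66 and 5.58 TPM at day 4, 49.9 and 41.9 TPM at day 6 and 38.96, 15.4 and 16.7 TPM at day 8. Replicate 1 stood above the others at day 0 and at day 8. *Axin2* rose by 2.75 ± 0.49 from day 4 to day 6 (adjusted p = 0.000265). The change to day 8, -1.04 ± 0.49, missed the threshold (adjusted p = 0.118) and was called with the replicate block (-1.29, adjusted p = 0.00448) or without E14Tg2a day 8 replicate 1 (-1.45, adjusted p = 0.0341). In ΔK9.1 *Axin2* was at 45.9 and 14.2 TPM at day 6 and 48.3, 36.2 and 14.02 TPM at day 8, and in ΔK9.2 at 33.9 and 33.4 TPM and 66.1, 34.9 and 20.2 TPM. The group means at day 8 were 51.6% of those at day 6 in E14Tg2a, 109% for ΔK9.1 and 120% for ΔK9.2. Both clone figures hang on single libraries. Without ΔK9.1 day 6 replicate 3, at 14.2 TPM, the rise of the ΔK9.1 mean turned to a fall. The rise of the ΔK9.2 mean did the same without ΔK9.2 day 8 replicate 1, at 66.1 TPM.

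*Sp5* (chr2:70474923-70477729, plus strand), a zinc-finger factor induced directly by beta-catenin and the gene whose promoter holds CTTTGAT above, had the largest step of the 10 members from day 4 to day 6 in E14Tg2a. E14Tg2a libraries held 1.64, 0.541 and 0.458 TPM at day 0, 0.359, 1.10 and 0.259 TPM at day 4, 51.7 and 59.98 TPM at day 6 and 7.64, 0.936 and 4.91 TPM at day 8. The day 6 libraries lay far above all others, a rise of 5.21 ± 0.52 (adjusted p = 4.14e-07) followed by a change of -3.62 ± 0.52 (adjusted p = 4.15e-05). At day 8 it was still called above day 0 (1.35 ± 0.47, adjusted p = 0.0157), a call that leaving out E14Tg2a day 0 replicate 2 or 3 or day 8 replicate 1 or 3 ended (adjusted p from 0.0530 to 0.125). ΔK9.1 held 40.9 and 7.38 TPM at day 6 and 8.19, 7.11 and 10.7 TPM at day 8. ΔK9.2 held 30.9 and 36.1 TPM and 25.5, 6.81 and 14.1 TPM. From day 6 to day 8 the changes in the clones were -0.97 ± 0.52 and -1.23 ± 0.52 (adjusted p = 0.217 and 0.117). The first was called once ΔK9.1 day 6 replicate 3 was left out (-2.13, adjusted p = 0.0473), and the second without ΔK9.2 day 8 replicate 1 (-1.66, adjusted p = 0.0339).

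*Dkk1*, the LRP antagonist and itself a WNT target (chr19:30545863-30549665, minus strand), had its highest mean at day 8 in every line. In E14Tg2a it was at 2.71, 0.165 and 0.338 TPM at day 0, 3.92, 0.800 and 2.59 TPM at day 4, 13.4 and 13.2 TPM at day 6 and 18.9, 18.4 and 21.3 TPM at day 8. The change from day 0 to day 8 was 3.51 ± 0.50 (adjusted p = 1.64e-06), and the first library of day 0 was higher than the other two. Its step from day 4 to day 6 was 2.18 ± 0.56 in E14Tg2a (adjusted p = 0.00655), a call lost without E14Tg2a day 6 replicate 2 (0.0651) and with a pseudocount of 0.1 (0.0638). ΔK9.1 held 0.217, 0.238 and 0 TPM at day 4, 6.49 and 0.782 TPM at day 6 and 11.4, 28.9 and 8.22 TPM at day 8. ΔK9.2 held 1.81, 0.151 and 0.162 TPM, 4.19 and 3.82 TPM and 6.01, 11.9 and 7.56 TPM on the same days. All 4 clone libraries of day 6 were below both E14Tg2a libraries. The clones' steps from day 4 to day 6 were 1.67 ± 0.56 and 1.68 ± 0.56 (adjusted p = 0.0405 and 0.0250). The ΔK9.1 call was lost without any of ΔK9.1 day 4 replicates 1, 2 and 3 or day 6 replicate 2 (adjusted p from 0.0602 to 0.725), and the ΔK9.2 call without any of ΔK9.2 day 4 replicates 2 and 3 or day 6 replicates 2 and 3 (0.0731 to 0.124). Against day 0, the ΔK9.2 call of day 6 was lost without ΔK9.2 day 0 replicate 2 or day 6 replicate 2 or 3 (0.0567 to 0.0775). In ΔK9.1 the change from day 6 to day 8 was called (2.04 ± 0.56, adjusted p = 0.0152), but not without ΔK9.1 day 6 replicate 3 (1.01, adjusted p = 0.442) or without day 8 replicate 2 (1.55, adjusted p = 0.102).

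In the clones the same 9 members were called higher at day 6 than at day 0, in ΔK9.1 (12.8% of all genes called, 4.95% higher) and in ΔK9.2 (17.5%, 7% higher). From day 4 to day 6, 8 were called higher in ΔK9.1 (5.36% of all genes called, 3.42% higher) and 8 in ΔK9.2 (9.9%, 4.89% higher). *Lef1* and *Tcf7* were the exceptions. The 2 ΔK9.1 counts rested on ΔK9.1 day 6 replicate 2, without which 4 members were called against day 0 and 3 against day 4. At day 8, 8 members were called higher than at day 0 in ΔK9.1 (20.9% of all genes called, 10.9% higher) and 8 in ΔK9.2 (22.2%, 11% higher). They were the 7 of E14Tg2a and *Wnt8a*. From day 6 to day 8, *Wnt5a* and *Dkk1* were called higher in ΔK9.1 (2 members, 6.51% of all genes called, 4.82% higher). *Wnt8a* was called lower in ΔK9.2 (1 member, 5.21% of all genes called, 1.53% lower). That last change of -1.70 ± 0.56 was borderline (adjusted p = 0.0444) and was lost when any of 4 of the 5 ΔK9.2 libraries compared was left out (adjusted p from 0.0826 to 0.269).

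**Figure D2:**
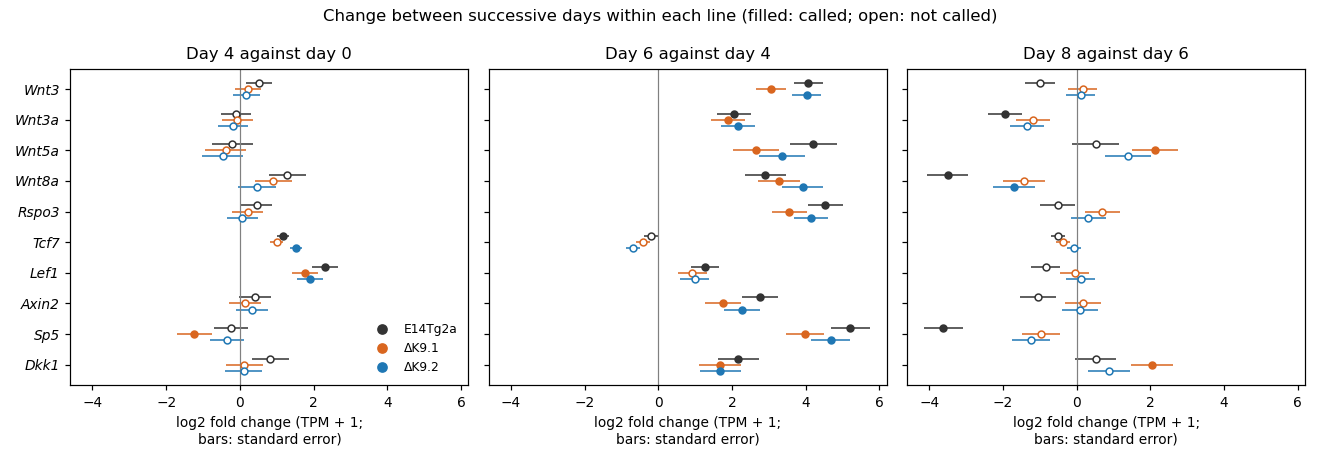
Change of each member between successive days in E14Tg2a, ΔK9.1 and ΔK9.2. The horizontal axis is the log2 fold change on the log2(TPM + 1) scale with bars of 1 SE, and filled points were called. From day 6 to day 8 the E14Tg2a changes of *Sp5* and *Wnt8a* are -3.62 and -3.50, and those of the clones lie between -0.97 and -1.70.

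Between the clones and E14Tg2a, no member was called in undifferentiated cells. There 6 of the 10 passed the minimum of a mean of 1 TPM in any group, *Wnt3*, *Wnt3a*, *Wnt8a* and *Rspo3* falling below it, and 0 of the 6 were called in both clones, where 0.0758% of all genes were. At an unadjusted p under 0.05, 1 member passed for ΔK9.1 and 0 for ΔK9.2. The one in ΔK9.1 was *Sp5*, at 2.30, 1.53 and 1.66 TPM against 1.64, 0.541 and 0.458 TPM in E14Tg2a (0.63 ± 0.26, adjusted p = 0.124), with overlapping libraries. *Sp5* reached the minimum only through ΔK9.1, where it was higher (mean 1.83 TPM, against 0.880 in E14Tg2a and 0.733 in ΔK9.2). Its day 0 tests are therefore no support for a difference. *Sp5* was called in ΔK9.1 once E14Tg2a day 0 replicate 1, the highest of its group, was left out (0.91, adjusted p = 0.0213), and so then was *Tcf7* (0.55, adjusted p = 0.0306). With the replicate block *Axin2* (0.44, adjusted p = 0.0218) and *Tcf7* (0.37, adjusted p = 0.0377) were called higher in ΔK9.1. *Dkk1* was at 0.110, 0.0549 and 0.0110 TPM for ΔK9.1 and 1.64, 0 and 0.142 TPM for ΔK9.2.

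At day 4 too, 0 members were called when the averaged clones were set against E14Tg2a (0.796% of all genes called; 1 member at an unadjusted p under 0.05). The member with the largest difference was *Dkk1* (-1.25 ± 0.44, adjusted p = 0.135). Its E14Tg2a libraries held 3.92, 0.800 and 2.59 TPM, and only ΔK9.2 replicate 1 among the clone libraries exceeded 1 TPM. A block of replicate numbers within each day made it pass (adjusted p = 0.0327), as it did in ΔK9.1 alone (-1.47, adjusted p = 0.121, and 0.0294 with that block). The other 9 differences lay between -0.52 (*Wnt8a*) and 0.28 (*Tcf7*). At this day the summed level of 13 markers of extraembryonic endoderm, a lineage that also forms in EBs, was 6.83 to 48.8 TPM in ΔK9.1, 27.2 to 254 TPM in ΔK9.2 and 122 to 950 TPM in E14Tg2a, with 10 of the 13 called lower in the clones. Whether these markers have a part in the *Dkk1* difference was not tested.

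Day 6 differences were mostly downward in the clones without passing the test. On the log2(TPM + 1) scale the difference was below 0 for 9 of the 10 members, and for 8 the clone mean in TPM was also lower, *Wnt3a* and *Wnt8a* having higher means. The median log2 difference was -0.80 against -0.0284 over all genes, and 0 were called (1.62% of all genes called, 5 members at an unadjusted p under 0.05). *Dkk1* differed by -1.74 ± 0.53 (adjusted p = 0.0659). Blocked on replicate number it was called (adjusted p = 0.0384), and with a block within each day so was *Wnt5a* (-1.25 ± 0.60, adjusted p = 0.0460). *Sp5* differed by -1.16 ± 0.50 (adjusted p = 0.214), *Rspo3* by -1.02 ± 0.45 (adjusted p = 0.232) and *Wnt3* by -0.99 ± 0.38 (adjusted p = 0.152). For *Wnt3*, *Sp5* and *Dkk1* every clone library was below every E14Tg2a library, 3 of 10 members, where with so few libraries 19.6% of all genes showed the same. Markers of other cell types moved at day 6 too. Sums over 13 extraembryonic endoderm markers were 131 to 266 TPM in E14Tg2a, 13.7 to 46.4 TPM for ΔK9.1 and 25.5 to 30.3 TPM for ΔK9.2, with 3 of 13 called lower in the clones. Those over 10 mesenchyme markers were 147 to 286, 20.6 to 85.3 and 57.0 to 63.0 TPM, with 2 called lower, and those over 8 pluripotency markers 1114 to 1255, 1658 to 1864 and 1746 to 2049 TPM, with 0 called. Of the 10 streak and nascent mesoderm markers 1 was called lower, and of 8 neural markers 0 were called. No marker of these lists was at 0 TPM throughout a day 6 group, and their part in the day 6 differences was not tested.

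These day 6 values depended strongly on the ΔK9.1 libraries. Without ΔK9.1 day 6 replicate 2, *Dkk1* (-2.26), *Wnt5a* (-1.99), *Rspo3* (-1.79), *Sp5* (-1.74) and *Wnt3* (-1.49) were called lower, 5 in all. Without replicate 3, the library that stood apart, 0 were called and the same differences were -1.23, -0.51, -0.24, -0.58 and -0.48. In ΔK9.2 alone, whose 2 libraries lay close together, *Dkk1* differed from E14Tg2a by -1.52 ± 0.62 (adjusted p = 0.273), *Sp5* by -0.72 ± 0.57 and *Wnt3* by -0.55 ± 0.44 (adjusted p = 0.683 and 0.684). In ΔK9.1 alone, they differed by -1.97 ± 0.62, -1.60 ± 0.57 and -1.42 ± 0.44 (adjusted p = 0.0828, 0.140 and 0.0745), and with the replicate block *Dkk1* and *Wnt3* were called (adjusted p = 0.0479 and 0.0445). With a block within each day *Sp5* and *Wnt5a* in ΔK9.1 were called too (adjusted p = 0.0469 and 0.0278).

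At day 8, *Wnt8a* and *Sp5* were higher in the clones than in E14Tg2a. These 2 members were called, where 4.24% of all genes were called and 0.826% called higher. *Wnt8a* averaged 7.72 ± 4.29 TPM (SD, n = 3) for ΔK9.1 and 9.19 ± 8.06 TPM for ΔK9.2 against 1.07 ± 1.21 TPM in E14Tg2a, a difference of 2.09 ± 0.44 on the log2 scale (adjusted p = 0.00142). It was called in each clone alone, at 2.09 ± 0.50 in ΔK9.1 (adjusted p = 0.00844; 0.686% of all genes called higher) and 2.10 ± 0.50 in ΔK9.2 (adjusted p = 0.00555; 0.955%). The clones together remained called whichever library was left out, with E14Tg2a day 8 replicate 2 giving 1.76 (adjusted p = 0.0307). The ΔK9.1 call was lost without E14Tg2a day 8 replicate 2 or ΔK9.1 day 8 replicate 3 (adjusted p = 0.0767 and 0.0557), and the ΔK9.2 call without E14Tg2a day 8 replicate 2 or ΔK9.2 day 8 replicate 1 (0.0585 and 0.0696).

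*Sp5* averaged 8.68 ± 1.86 TPM for ΔK9.1 and 15.5 ± 9.43 TPM for ΔK9.2 against 4.49 ± 3.37 TPM in E14Tg2a at day 8, a difference of 1.35 ± 0.41 (adjusted p = 0.0198). It passed in ΔK9.2 (1.66 ± 0.47, adjusted p = 0.0161) and not in ΔK9.1 (1.05 ± 0.47, adjusted p = 0.153), unless E14Tg2a day 8 replicate 1 was left out (adjusted p = 0.0403). The call for the clones together was lost without ΔK9.2 day 8 replicate 1 (1.14, adjusted p = 0.0563) and without E14Tg2a day 8 replicate 2, whose level was the lowest of the day (0.73, adjusted p = 0.315). Within ΔK9.2 the call was lost without the same 2 libraries (adjusted p = 0.132 and 0.190). When only the day 8 libraries were fitted, neither *Sp5* nor *Wnt8a* passed (adjusted p = 0.127 and 0.0700), at the same fold changes.

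The other 8 members were not called at day 8. The largest difference among them was that of *Dkk1* (-0.80 ± 0.44, adjusted p = 0.213), and in ΔK9.2 it was -1.16 ± 0.50 (adjusted p = 0.120) and called with a block within each day (0.0389). *Axin2* differed by 0.56 ± 0.38 (adjusted p = 0.325), *Lef1* by 0.50 ± 0.30 and *Wnt3a* by 0.59 ± 0.36, while *Wnt5a* and *Rspo3* had differences of -0.0044 ± 0.49 and 0.0012 ± 0.37. The median over the 10 was 0.35 against -0.0035 over all genes, and 8 of the 10 differences were above 0. No member had clone and E14Tg2a libraries without overlap at day 8, where 13.4% of all genes did. Compared within replicate numbers, all 6 clone libraries of day 8 lay above the E14Tg2a library of their number for *Wnt3a*, *Wnt8a* and *Sp5* (3 of 10 members, where 14.5% of all genes did). ΔK9.2 replicate 1 was the highest of the 9 day 8 libraries for 8 of the 10 members.

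**Figure D3:**
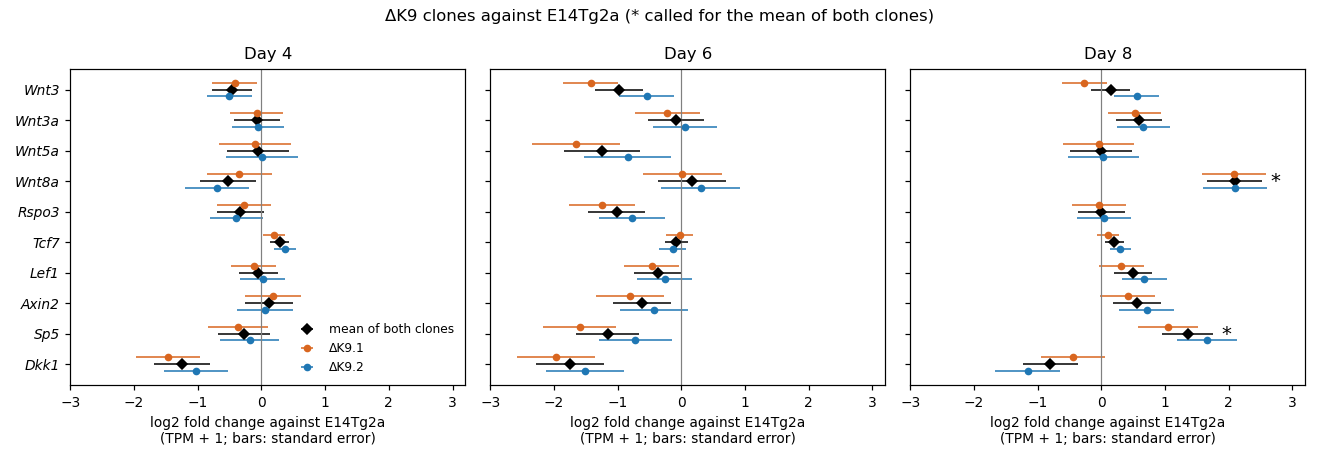
Differences between the clones and E14Tg2a at days 4, 6 and 8. The horizontal axis is the log2 fold change on the log2(TPM + 1) scale for ΔK9.1, ΔK9.2 and their mean (black diamonds), bars are 1 SE, and an asterisk marks members called for the mean of the clones. At day 6 most points lie left of 0, and at day 8 *Wnt8a* is at 2.09 for ΔK9.1 and 2.10 for ΔK9.2.

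Marker lists of other cell types also differed at day 8. The summed level of 10 streak and nascent mesoderm markers was 31.5 to 206 TPM in the E14Tg2a libraries, 158 to 331 TPM for ΔK9.1 and 257 to 751 TPM for ΔK9.2, with 5 of 10 called higher in the clones (*Eomes*, *Fgf8*, *Mesp1*, *Msgn1* and *T*) and 1 lower (*Foxa2*). For 8 pluripotency markers the sums were 173 to 334, 370 to 890 and 429 to 1003 TPM, with 5 called higher. Sums over 10 mesenchyme markers were 984 to 2439.8, 158 to 639 and 323 to 654 TPM, with 5 called lower. Those over 13 extraembryonic endoderm markers were 390 to 540, 35.4 to 151 and 56.8 to 76.9 TPM, with 9 called lower. Of 8 neural markers 1 was called higher. The part of any of these cell types in the *Wnt8a* and *Sp5* differences was not tested.

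Whether the time course itself differed was tested by an interaction, the change in the mean of the clones minus that in E14Tg2a, at an adjusted p under 0.05. No member passed for day 4 against day 0 (0.0184% of all genes called, 0 members at an unadjusted p under 0.05), day 6 against day 0 (0.306%, 1 member), day 8 against day 0 (6.3%, 1 member) or day 8 against day 6 (0.392%, 3 members). The interaction of *Wnt8a* from day 0 to day 8 was 2.01 ± 0.62 and sat at the threshold (adjusted p = 0.0503, and 0.0402 with the replicate block, 0.0988 with only the groups compared and 0.104 with a pseudocount of 0.1). With 1 library left out its adjusted p ran from 0.0115 (without ΔK9.2 day 8 replicate 2) to 0.204 (without E14Tg2a day 8 replicate 2), and it passed without any of 7 libraries, the others being E14Tg2a day 4 replicates 2 and 3 and day 8 replicate 1, ΔK9.1 day 6 replicates 2 and 3 and ΔK9.1 day 8 replicate 2. That of *Sp5* from day 6 to day 8 was 2.51 ± 0.64 (adjusted p = 0.0782, and 0.527 with only the groups compared). With 1 library left out it ran from 0.00403 (without ΔK9.1 day 6 replicate 2) to 0.317 (without E14Tg2a day 6 replicate 3), and it also passed without E14Tg2a day 8 replicate 1, ΔK9.1 day 8 replicate 2 or ΔK9.2 day 8 replicate 2. For *Wnt8a* over the same days it was 1.93 ± 0.69 (adjusted p = 0.247) and for *Wnt3* 1.13 ± 0.49 (adjusted p = 0.385, and from 0.0292 without ΔK9.1 day 6 replicate 2 to 0.774 without replicate 3 of that day). For all 10 members the change from day 6 to day 8 was more positive in the clones than in E14Tg2a, with a median interaction of 1.07 against 0.013 over all genes, none of them past the test. As shares of the day 6 mean, the day 8 means of *Sp5* were 8.05% in E14Tg2a, 35.99% for ΔK9.1 and 46.2% for ΔK9.2, and those of *Wnt8a* 5.28%, 33.3% and 36.7%. Single libraries weigh on these shares. The log2 change of *Sp5* in ΔK9.1 was -2.13 without ΔK9.1 day 6 replicate 3 and turned to a rise without replicate 2. At day 8 replicate 1 held the highest *Wnt8a* level in E14Tg2a (2.44 TPM, others 0.161 and 0.597) and in ΔK9.2 (17.97 TPM, others 2.11 and 7.50).

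**Figure D4:**
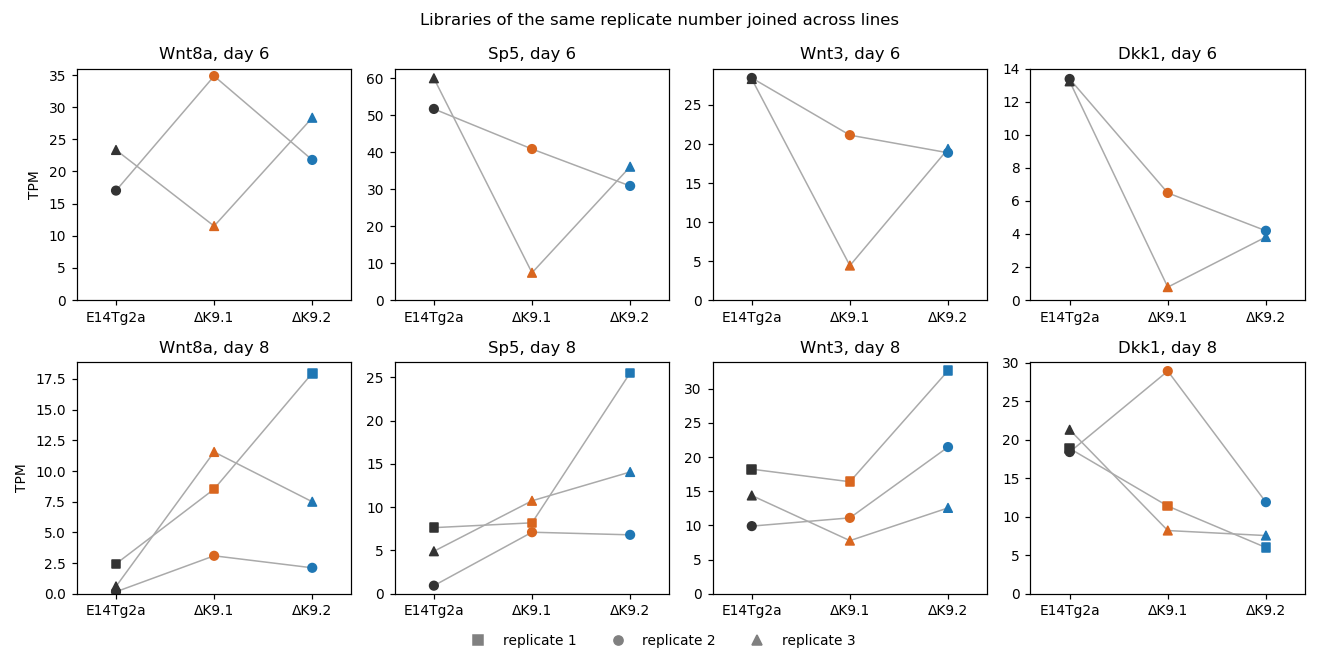
TPM of *Wnt8a*, *Sp5*, *Wnt3* and *Dkk1* in each library of days 6 and 8. Points are libraries of E14Tg2a, ΔK9.1 and ΔK9.2, lines join libraries with the same replicate number, and the vertical axis is linear TPM. Replicate 3 of ΔK9.1 is low at day 6 in all 4 panels, and *Wnt8a* at day 8 is at 0.161 to 2.44 TPM in E14Tg2a and 2.11 to 17.97 TPM in the clones.

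The 4 ligands can be set against all 15 WNT ligands with listed levels, since TPM compare genes per length. The 15 together averaged 9.36 (range 4.75 to 16.2) TPM in E14Tg2a at day 0, 139 (range 128 to 151) TPM at day 6 and 121 (range 97.5 to 150) TPM at day 8. At day 0, *Wnt6* (35.3% of the sum) and *Wnt11* (17.1%) each made up more than any of the 4 members. At day 6, *Wnt3* held 20.5%, *Wnt5a* 19.2% and *Wnt8a* 14.8% (range 11.3 to 18.3). At day 8, *Wnt5a* held 32.2%, *Wnt11* 15.96% (range 12.2 to 19.3), *Wnt3* 11.8% and *Wnt8a* 0.791% (range 0.140 to 1.62). In the clones the mixture differed in places: *Wnt8a* made up 33.2% (range 26.3 to 40.1) for ΔK9.1 and 26.4% (range 24.1 to 28.8) for ΔK9.2 at day 6, and 8.75% (range 2.53 to 17.9) and 6.98% (range 1.55 to 9.77) at day 8. *Wnt11*, a ligand of the branch without beta-catenin, made up 5.12% (range 3.08 to 6.48) and 5.97% (range 5.23 to 6.88) at day 8. Since shares are parts of a whole, a change in one ligand moves the others, and the shares were not tested.

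**Figure D5:**
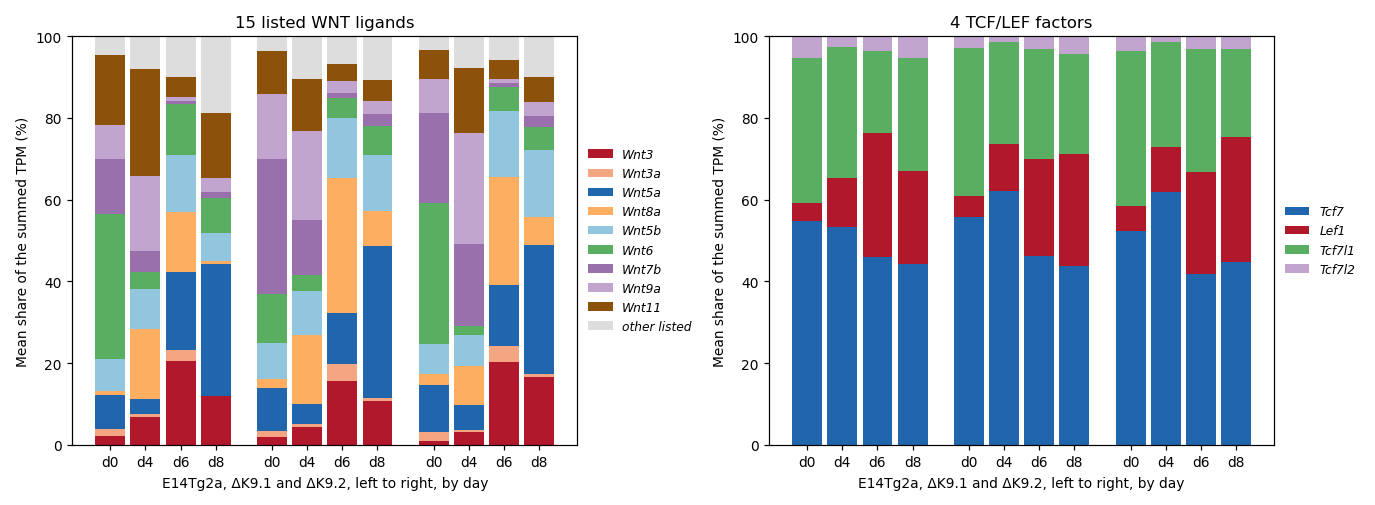
Mean shares of the summed TPM of 15 WNT ligands (left) and of 4 TCF/LEF genes (right). Stacked bars stand for the 12 groups, ordered by line and day, and the vertical axis is per cent of the sum. In E14Tg2a *Wnt8a* makes up 14.8% of the ligand sum at day 6 and 0.791% at day 8, and *Lef1* makes up 4.47% of the TCF/LEF sum at day 0 and 30.3% at day 6.

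Beyond the members, 106 further pathway genes were listed by role, and 92 of them were in the table. Between day 0 and day 8 in E14Tg2a, 34 of the 92 rose (15.9% of all genes) and 7 fell (11%), with a median change of 0.70 against 0.05 over all genes. Of the other ligands 8 of 11 rose, among them *Wnt2* (3.14), *Wnt11* (2.98), *Wnt4* (2.93) and *Wnt5b* (2.48). *Wls*, the carrier that brings WNT proteins to the cell surface, rose by 5.77 on the log2 scale, from 1.80 to 143 TPM. Of 16 receptor genes 7 rose and 2 fell, with *Fzd2* (3.39), *Fzd4* (3.00) and *Fzd1* (2.96) among the first and *Fzd5* (-3.60, from 42.6 to 2.58 TPM) among the second. The 5 R-spondin genes and R-spondin receptors tested included 2 that rose, *Rnf43* (1.39) and *Lgr5* (1.33).

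Among 16 inhibitor genes 5 rose and 1 fell over the same 8 days in E14Tg2a. *Frzb*, a secreted Frizzled-related protein, changed by 4.17, *Apcdd1* by 2.59, *Dkk2* by 2.08 and *Sfrp4* by -3.04. Of 18 genes of the beta-catenin machinery 4 rose, *Bcl9l* (2.63), *Amer1* (1.29), *Tnks* (1.20) and *Bcl9* (1.11), and 0 fell. The 9 other genes listed under TCF factors and corepressors had 0 that rose and 3 that fell, *Tle4* (-1.93), *Ctbp2* (-1.50) and *Tle5* (-1.41). Of 15 other target genes 7 rose and 1 fell, with *Cdx2* (5.46), *Bambi* (3.52) and *Nkd1* (3.14) higher and *Gbx2* (-4.37) lower.

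Compared with E14Tg2a at day 8, 5 of the 92 were called higher in the clones (0.826% of all genes) and 7 lower (3.42%), with a median of -0.11 against -0.0035 over all genes. The higher ones included 4 of the 15 other targets, *T* (2.70, adjusted p = 0.00758), *Msgn1* (2.17, adjusted p = 0.0214), *Gbx2* (1.82, adjusted p = 0.00124) and *Sp8* (1.21, adjusted p = 0.0137). The fifth was the receptor gene *Fzd10* (1.07, adjusted p = 0.0439). *T*, which encodes the streak and mesoderm factor Brachyury, was at 44.9, 1.46 and 4.09 TPM in the E14Tg2a libraries of day 8, 78.1, 30.3 and 29.7 TPM for ΔK9.1 and 218, 42.2 and 32.9 TPM for ΔK9.2. As for *Wnt8a*, the highest E14Tg2a library, replicate 1, overlapped with clone libraries. Those lower in the clones were the ligands *Wnt2* (-1.74) and *Wnt11* (-1.43), the receptor *Fzd4* (-1.50) and 4 of the 16 inhibitors, *Dkk3* (-1.70), *Dkk2* (-1.57), *Sfrp5* (-1.02) and *Shisa2* (-1.01). None of the beta-catenin machinery, the TCF factors and corepressors or the R-spondins and their receptors was called, 0 of 18, 0 of 9 and 0 of 5 genes. At day 6, 0 of the 92 were called higher and 7 lower, where 1.37% of all genes were lower, and at day 4 the counts were 0 and 2, where 0.71% were lower.

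Genes with the most similar course over the 12 group means were sought for every member except *Wnt3a*. Pearson correlations of the mean log2(TPM + 1) levels were ranked over the 9032 other genes whose group means spanned at least 1 on that scale, for the 9 members that reached 5 TPM (not *Wnt3a*). The points share the same libraries, and the values describe likeness only. *Wnt3* was most like *Evx1* (r = 0.996), *Evx1os* (0.993) and *Aplnr* (0.992), and *Rspo3* like *Aplnr* (0.998), *Pcdh18* (0.995) and *Chst2* (0.993). *Wnt8a* was most like *Apln* (0.994) and *Eomes* (0.978), and *Sp5* like *Mixl1* (0.984), *Slco5a1* (0.984) and *Tbx6* (0.982). *Wnt5a* ran with *Hoxb2* (0.993) and *Hoxb3* (0.991), *Dkk1* with *Gucd1* (0.994), *Phldb2* (0.993) and *Pdgfra* (0.993), and *Axin2* with *Rtl8c* (0.992), *Dock11* (0.992) and *Wnt5b* (0.991). *Lef1* was nearest to *Car14* (0.988) and *Foxh1* (0.988), and *Tcf7* to *Cpeb1* (0.972) and *Lad1* (0.952). Over the 45 pairs of members the median correlation was 0.797. The highest was that of *Wnt3* and *Rspo3* (0.992), the lowest that of *Wnt5a* and *Tcf7* (-0.081), and 13 pairs exceeded 0.9.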

How the data were processed

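RNA from 33 libraries of E14Tg2a, ΔK9.1 and ΔK9.2 cells was measured by strand-specific poly-A sequencing. Per the study's methods and the submitters' processing notes, the authors mapped read pairs with STAR (genome build mm10) and estimated abundances in RSEM. They left out outliers found by a principal component analysis before TPM were computed. Tool versions and the gene annotation are not given in the sources used here. The deposited values are TPM, summing to between 994284 and 998266 per library over the 16336 genes listed. TPM keep no depth, so the counting error behind each value is unknown. The table also holds 22 columns of the authors' own DESeq comparisons, which were not used.

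Groups came from the sample titles. No 2 of the 528 pairs of libraries were identical (highest correlation 0.988). One limma model (version 3.58.1, R 4.3.3) was fitted to log2(TPM + 1) of all 33 libraries in 12 groups, with empirical Bayes moderation, an intensity trend and Benjamini-Hochberg adjustment over all genes. Calls required an adjusted p under 0.05 and a change over 1 on the log2 scale, or an adjusted p under 0.05 for interactions. Day 0 was fitted alone (14504 genes reaching a mean of 1 TPM in a group), with a threshold of 0.3 in both clones. For a contrast of the clones with E14Tg2a, the 2 clones were averaged.

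The lines were differentiated in parallel in independent assays. Equal replicate numbers were taken to mark the same assay, which the sample labels do not state, and a fit with the replicate block was run beside the main one. Deviations from group means correlated with a median of 0.222 over 33 pairs with the same number and day (31 over 0.1, lowest -0.0129) and -0.127 over 60 pairs with different numbers (3 over 0.1). Because deviations cancel within a group, a positive first value forces a negative second one, which gives no separate support. P-values measure the spread between these assays, and each deletion line is 1 clone. The other alternatives tried were median-ratio rescaling, a minimum of 5 TPM, a pseudocount of 0.1, fitting only the groups compared, and leaving out each library in turn.

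The 10 members, the pathway lists and the marker lists were chosen with earlier results of these data known. Named genes were the members, up to 4 called genes per pathway list in the change of E14Tg2a to day 8 or the day 8 difference of the clones, and up to 3 genes with the most similar profile per member that reached 5 TPM. Levels of *T* by library were added after its values were seen. Positions are from GENCODE M21 on mm10 and promoters from RefSeq. Figures were drawn with matplotlib 3.10.9 in Python 3.11.15.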

Additional observations from a re-analysis of the deposited data

How the results depend on the processing

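Over the single values given for the 10 members, 955 of 1016 kept their direction and their side of the threshold under the other settings, 19 lost a call, 34 gained one and 8 reversed. With 1 library left out, 6425 of 6602 kept both, 82 lost a call, 52 gained one and 43 reversed, of which 0 were called values. The causes of the changes below were not tested. With the replicate block the count of members called went to 6 for E14Tg2a day 8 against day 6, 2 for the same step in ΔK9.2, 1 for the clones at day 6, 2 for ΔK9.1 at day 6 and 1 for the interaction at day 8. With the block within each day it went to 1 for the clones and 1 for ΔK9.1 at day 4, and 2 and 4 at day 6. Calls that the pairing changed are given beside their results, and no other call of a member changed with the replicate block. When only the groups compared were fitted, fewer libraries set the spread. Then 0 members were called at day 8 for the clones, ΔK9.1 or ΔK9.2, 0 from day 6 to day 8 in ΔK9.1 or ΔK9.2, and 4 from day 4 to day 6 in ΔK9.1. A pseudocount of 0.1 gave 4 members at day 4 in E14Tg2a, 4 in ΔK9.1, and 1 and 0 from day 6 to day 8 in ΔK9.1 and ΔK9.2. Median-ratio rescaling gave 2 from day 6 to day 8 in ΔK9.2 and 1 for the interaction at day 8, as did the minimum of 5 TPM for the latter (1).

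With 1 library left out, counts of members called ranged from 0 to 5 for the clones at day 6 and 1 to 2 at day 8, 0 to 6 for ΔK9.1 at day 6 and 0 to 2 at day 8, and 0 to 2 for ΔK9.2 at day 8. Within lines they ranged from 1 to 3 at day 4 and 3 to 5 from day 6 to day 8 in E14Tg2a, from 1 to 2 at day 4, 4 to 9 at day 6, 3 to 9 from day 4 to day 6 and 0 to 4 from day 6 to day 8 in ΔK9.1, and from 0 to 3 from day 6 to day 8 in ΔK9.2. Interactions ranged from 0 to 1 at day 6, 0 to 1 at day 8 and 0 to 3 from day 6 to day 8, a contrast added after the data were seen.

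No called value reversed. Under other settings the reversals were *Axin2* from day 6 to day 8 in ΔK9.1 (-0.068) and ΔK9.2 (-0.15) and *Lef1* in ΔK9.2 (-0.085) with the replicate block, *Lef1* at day 4 (0.036), *Wnt5a* at day 8 (0.016) in the clones and *Wnt3a* at day 8 against day 0 in E14Tg2a (-0.0018) with median-ratio rescaling, and *Rspo3* at day 8 in the clones (-0.0013) and the same *Wnt3a* change (-0.057) with the pseudocount of 0.1. With 1 library left out, the log2 values that reversed had these ranges. From day 0 to day 4 in E14Tg2a, *Sp5* ranged from -0.47 to 0.032 and *Wnt3a* from -0.18 to 0.011. From day 0 to day 8 in E14Tg2a, *Wnt3a* ranged from -0.15 to 0.13. For the clones at day 4, *Axin2* ranged from -0.029 to 0.30, *Lef1* from -0.18 to 0.031 and *Wnt5a* from -0.14 to 0.034. For the clones at day 6, *Wnt3a* ranged from -0.73 to 0.56 and *Wnt8a* from -0.22 to 0.54. For the clones at day 8, *Rspo3* ranged from -0.14 to 0.16, *Wnt3* from -0.075 to 0.33 and *Wnt5a* from -0.32 to 0.36. From day 0 to day 4 in ΔK9.1, *Axin2* ranged from -0.032 to 0.37. From day 6 to day 8 in ΔK9.1, *Axin2* ranged from -0.63 to 0.995, *Lef1* from -0.72 to 0.62, *Rspo3* from -0.86 to 2.25, *Sp5* from -2.13 to 0.19, *Wnt3* from -0.85 to 1.18 and *Wnt3a* from -2.48 to 0.10. From day 0 to day 4 in ΔK9.2, *Dkk1* ranged from -0.32 to 0.54. From day 6 to day 8 in ΔK9.2, *Axin2* ranged from -0.33 to 0.50, *Lef1* from -0.17 to 0.32, *Tcf7* from -0.13 to 0.0074 and *Wnt3* from -0.21 to 0.45.

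Over all genes, the pseudocount of 0.1 moved the day 8 calls for the clones from 135 higher and 558 lower to 393 and 762, for ΔK9.1 from 112 and 394 to 278 and 386, and for ΔK9.2 from 156 and 693 to 347 and 863. With the replicate block those of the interaction at day 8 went from 221 and 808 to 397 and 1242. Median-ratio rescaling moved the median gene at day 4 against day 0 from -0.21 to -0.0015 in ΔK9.1 and from -0.16 to -0.0017 in ΔK9.2, and the calls from 224 and 656 to 366 and 370 and from 414 and 831 to 591 and 556. Depth is unknown, so whether levels near 0 TPM differed could not be resolved.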
